A study of Mus musculus with 6 samples.

Results

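The transcripts described are those of the AP-1 family of transcription factors in naive CD8 T cells of the mouse: the Fos genes Fos, Fosb and Fosl2, the Jun genes Jun, Junb and Jund, the related genes Batf and Atf3, and the small Maf genes Maff and Mafk. These 10 genes were taken by symbol, with no cutoff on measured values. Earlier results of these data were known when the list was made. The table of RPKM values (reads scaled for gene length and library depth) held 9 of them among 11162 listed genes, and 8 of them were among the 9351 genes that averaged 1 RPKM or more, which were tested. Maff had a mean of 0.681 RPKM and was left out of the test, and Atf3 was not analysed here.

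RNA came from spleen T cells sorted as CD8+ with low CD44, high CD62L and high Qa2, all from mice carrying Nur77-GFP, a transgene written Tg(Nr4a1-EGFP)GY139Gsat in which regulatory sequence of Nr4a1 drives green fluorescent protein. OT-I, a transgenic T-cell receptor for a peptide of ovalbumin, is named among the sorting markers of both groups, so reporter and receptor were shared, and reporter brightness is the label that differs. The data were 3 libraries of bright cells (GFP-hi) and 3 of dim cells (GFP-lo). Nur77 is induced by T-cell receptor signals, and the comparison asks how RNA differs between naive cells with more and with less of the reporter. Age and sex of the mice were not given in the sources used here. Nothing in the labels says that the 3 libraries of a group came from separate mice, so p-values measure the spread between libraries, which may be technical.

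AP-1 is a dimer of basic leucine zipper (bZIP) proteins. Fos proteins pair only with partners, chiefly Jun proteins, whereas Jun proteins can also pair with each other. In T cells, Fos and Jun are made within minutes of a receptor signal through the MAP kinases and act with NFAT on genes such as Il2. Batf pairs with Jun proteins and, with IRF4, opens chromatin during effector differentiation. Small Maf proteins have no activation domain and serve as partners for other bZIP proteins. Fos, Jun, Junb, Egr1 and other immediate early genes also respond to tissue dissociation, cold and heat, so the handling of cells can bear on their level.

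Junb, Jun and Fos carry most of what follows, and the bases before their start sites are shown because their RNA was highest in the same library of each population. Sequences are from RefSeq on GRCm38.p6, which is the build (mm10) named in the submitters' processing notes; promoter windows were found for 9 of the 9 listed members. Each run below is the 250 bases before the start, 5′ to 3′ on the gene's strand, at chr12:85473640-85473889 (plus strand) for Fos, chr4:95052223-95052472 (minus strand) for Jun and chr8:84978749-84978998 (minus strand) for Junb. Capitals mark matches on either strand to TGACGT (the core of a cyclic AMP response element), TGACATCA (a variant AP-1 site), TATAAA (bound by the TATA-binding protein), CCAAT (bound by NF-Y) and GAANNTTC (paired heat-shock element units).
Fos: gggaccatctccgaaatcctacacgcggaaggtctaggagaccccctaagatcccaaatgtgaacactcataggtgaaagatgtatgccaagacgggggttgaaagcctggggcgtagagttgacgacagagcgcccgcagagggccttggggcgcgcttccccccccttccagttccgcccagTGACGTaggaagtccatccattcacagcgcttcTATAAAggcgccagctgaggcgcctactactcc
Jun: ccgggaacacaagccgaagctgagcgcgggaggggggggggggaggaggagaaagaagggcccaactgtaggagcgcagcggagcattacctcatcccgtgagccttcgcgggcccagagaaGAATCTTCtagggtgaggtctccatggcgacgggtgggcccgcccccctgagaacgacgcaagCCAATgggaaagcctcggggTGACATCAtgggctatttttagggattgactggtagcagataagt
Junb: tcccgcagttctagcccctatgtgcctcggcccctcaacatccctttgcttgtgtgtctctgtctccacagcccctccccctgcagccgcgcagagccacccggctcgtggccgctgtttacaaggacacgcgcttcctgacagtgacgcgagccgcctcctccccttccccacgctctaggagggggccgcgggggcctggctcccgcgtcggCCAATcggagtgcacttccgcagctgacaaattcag
TGACGT began 66 bases and TATAAA 33 bases before the Fos start. In Jun, GAANNTTC began 128, CCAAT 65 and TGACATCA 45 bases before the start. In Junb, CCAAT began 36 bases before the start and no other of these motifs was found. Of all 32851 promoter windows of this length, 6.47% held TGACGT, 2.93% TGACATCA, 12.4% TATAAA, 33.8% CCAAT and 6.69% GAANNTTC. The canonical AP-1 site TGANTCA (6.75% of windows) and the CArG box (1.47%) were searched too and had no match in the windows of the 9 members. Bases further than 250 before the start were not searched, so sites there would be missed. A match is a description of letters and shows no binding.

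In GENCODE M21 (GRCm38), Jun (Entrez 16476) lies at chr4:95049034-95052222, Junb (Entrez 16477) at chr8:84974484-84978718 and Jund (Entrez 16478) at chr8:70698949-70700616, and the coding transcript of each has 1 exon. Fos (Entrez 14281) lies at chr12:85473890-85477273 with 4 exons, and Batf (Entrez 53314) is on the same chromosome at chr12:85686669-85709087.

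The read depth recovered from the steps in low values ran from 26172000 to 35940000 reads per library, so that each RPKM unit on 1 kilobase of transcript stood for 26.17 to 35.94 reads. With GENCODE transcript lengths, Junb rested on 27894 to 53541 reads per library and Fosl2 on 264 to 515. Maff rested on 9 to 65, depending on the library and the transcript. Counting error covers only part of the error, since reads include PCR copies. Replicate 2 of each population stood apart in heat-shock RNA, and the results are given with and without these 2 libraries. All 13 CD8 T-cell markers were listed, summing to 2520 to 2710 RPKM in GFP-hi and 2560 to 2760 RPKM in GFP-lo libraries. Of 9 B-cell markers 3 had values, and their sum was 12.6 to 14.2 RPKM in GFP-hi against 11 to 11.5 RPKM in GFP-lo, nearly all of it Cd79b; the part of this difference in the results was not tested. Of 12 myeloid markers 2 had values, summing to less than the B-cell markers, of 9 erythroid and platelet markers 1 (Hba-a1, at most 1.94 RPKM), of 7 NK-cell markers 1 (Eomes, also made by CD8 T cells) and of 4 CD4 T-cell markers 1 (Ctla4). Ctla4, which is also on the list of AP-1 and NFAT targets below, had 1.63 to 3.09 RPKM in GFP-hi and 1.07 to 1.85 RPKM in GFP-lo. The part of CD4 T cells in this difference was not tested.

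The family spanned 3 tiers of abundance. Junb was the most abundant member with a mean of 741 RPKM over the 6 libraries, rank 5 of the 9351 genes tested, and Fos followed at 611 RPKM (rank 7), Jun at 532 RPKM (rank 12) and Jund at 356 RPKM (rank 22). Batf (43.4 RPKM) and Mafk (19.0 RPKM) formed a middle tier, and Fosb (3.17 RPKM), Fosl2 (1.79 RPKM) and Maff (0.681 RPKM) a low tier. This order held in 6 of 6 libraries for each pair of neighbours. The narrowest gaps were Junb over Fos (1.02-fold to 1.46-fold), Fos over Jun (1.04-fold to 1.37-fold) and Fosb over Fosl2 (1.08-fold to 2.54-fold), and the widest among the abundant genes was Jund over Batf (6.89-fold to 9.15-fold). Fos, Jun, Junb and Jund together made up 96.5% to 97.6% of the summed RPKM of the 9 members in each library. That sum was 1780, 2570 and 1811 RPKM in GFP-hi libraries against 2410, 2948 and 2326 in GFP-lo. In bulk samples, fewer cells that make a transcript and less of it per cell cannot be told apart.

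**Figure D1:**
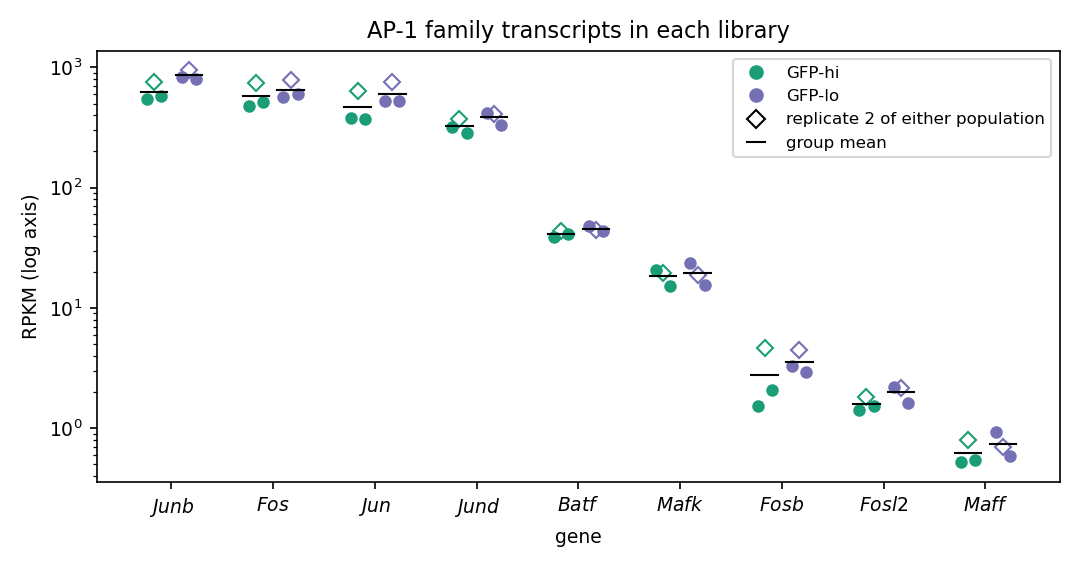
RPKM (log axis) of the 9 listed AP-1 family genes in each of 3 GFP-hi (green) and 3 GFP-lo (purple) libraries, with horizontal bars for group means; open diamonds are replicate 2 of each population. The 4 abundant genes have means of 356 to 741 RPKM and Maff of 0.681 RPKM, and in Fos, Jun and Junb the diamond is the highest point of its group.

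None of the 8 members tested passed the test between GFP-hi and GFP-lo cells over 6 libraries, although all 8 had a negative log2 fold change, with a median of -0.22. The test was limma on log2(RPKM + 1) with Benjamini-Hochberg adjustment over all genes tested. At this threshold 3.95% of all genes passed, 230 higher and 139 lower in GFP-hi, or 175 and 170 after scaling by the trimmed mean of M values. At an unadjusted p under 0.05 there was 1 member, Junb, against 20.2% of all genes. A negative fold change was found in 44.5% of all genes, whose median was 0.02. The members were measured in the same libraries, so their common sign does not count as 8 separate observations.

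Junb, whose protein restrains or replaces c-Jun in many dimers, had 542, 750 and 578 RPKM in GFP-hi libraries against 824, 944 and 808 in GFP-lo. It was the only tested member whose groups did not overlap, as was the case, with lower values in GFP-hi, for 9.84% of all genes tested. GFP-hi libraries averaged 623 ± 111 and GFP-lo libraries 859 ± 74.7 RPKM (n = 3, SD). On the log2 scale GFP-hi minus GFP-lo was -0.47 (standard error 0.124, 95% interval from -0.76 to -0.19), which missed the threshold after adjustment (limma adjusted p = 0.0798). Without GFP-hi replicate 2 it was -0.61 and passed (limma adjusted p = 0.0165, where 1.37% of all genes passed as lower).

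Jun encodes c-Jun, the best known activating partner of Fos. It had 377, 641 and 374 RPKM in GFP-hi libraries against 525, 750 and 524 in GFP-lo. GFP-hi replicate 2 lay above GFP-lo replicates 1 and 3, so the groups overlapped, with means of 464 ± 153 and 600 ± 130 RPKM (n = 3, SD). On the log2 scale the difference was -0.40 with an interval from -0.91 to 0.12 (limma adjusted p = 0.38), and it ranged from -0.65 without GFP-hi replicate 2 to -0.22 without GFP-lo replicate 2.

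Jund, the Jun gene least dependent on stimulation, had 321, 375 and 285 RPKM in GFP-hi libraries against 418, 406 and 330 in GFP-lo. The groups overlapped, with means of 327 ± 45.4 and 385 ± 47.7 RPKM (n = 3, SD). On the log2 scale the difference was -0.24 with an interval from -0.51 to 0.04 (limma adjusted p = 0.329).

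Fos, the inducible partner of the Jun proteins, had 476, 734 and 513 RPKM in GFP-hi libraries against 566, 778 and 599 in GFP-lo. Its groups overlapped, with means of 574 ± 140 and 648 ± 114 RPKM (n = 3, SD). On the log2 scale it differed by -0.18 with an interval from -0.59 to 0.22 (limma adjusted p = 0.618). Fosb, a close relative made after stimulation, was far lower, at 1.53, 4.66 and 2.10 RPKM in GFP-hi libraries against 3.31, 4.48 and 2.95 in GFP-lo. Its highest value was in GFP-hi replicate 2 and its log2 fold change was -0.36 with an interval from -0.98 to 0.27 (limma adjusted p = 0.521). Leaving out 1 library moved it from -0.70 (without GFP-hi replicate 2) to -0.12 (without GFP-hi replicate 1). Fosl2, which encodes Fra-2, had 1.42, 1.83 and 1.52 RPKM in GFP-hi libraries against 2.19, 2.17 and 1.61 in GFP-lo, which is -0.20 on the log2 scale (limma adjusted p = 0.325). Only GFP-lo replicate 3 lay within the GFP-hi range.

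Batf was the steadiest member. It had 38.9, 43.8 and 41.3 RPKM in GFP-hi libraries against 48.0, 44.4 and 43.7 in GFP-lo, and the groups overlapped by GFP-hi replicate 2 alone. Its log2 fold change was -0.13 with an interval from -0.28 to 0.02 (limma adjusted p = 0.306). Its spread within groups, an SD of 0.0772 on the log2 scale, was below the median of all tested genes (0.0897), whereas Fosb (0.461), Jun (0.377) and Fos (0.293) had spreads above those of 99.1%, 98.7% and 97.6% of tested genes.

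Mafk, a small Maf partner, had 20.8, 19.6 and 15.2 RPKM in GFP-hi libraries against 23.7, 18.9 and 15.4 in GFP-lo. The third library was the lowest of each population, and the log2 fold change was -0.05 with an interval from -0.42 to 0.32 (limma adjusted p = 0.899). Its sign turned when GFP-hi replicate 3 (0.08) or GFP-lo replicate 1 (0.10) was left out. Maff, its close relative, had 0.522, 0.803 and 0.542 RPKM in GFP-hi libraries against 0.925, 0.702 and 0.593 in GFP-lo. With no filter on low values its log2 fold change was -0.10 (limma adjusted p = 0.733).

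Libraries differed in their heat-shock RNA, and most but not all members were higher in the 2 libraries that held more of it. Hspa1a and Hspa1b, which encode inducible Hsp70 and are near-identical copies, summed to 517, 3000.0 and 496 RPKM in GFP-hi libraries against 738, 3370.0 and 676 in GFP-lo, so that replicate 2 of each population stood apart. The mean of log2(RPKM + 1) over 23 tested heat-shock genes, none of them a member, was 5.24, 6.02 and 5.25 in GFP-hi and 5.29, 6.01 and 5.31 in GFP-lo. The population means were 5.5 ± 0.45 and 5.54 ± 0.41 (SD, n = 3 each, exact permutation test, two-sided p = 0.6, the smallest possible being 0.1). Replicate numbers were given by record order and were not used to pair libraries; the labels do not say whether libraries were processed together.

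Most members were higher in these 2 libraries than in the mean of the others of the same population. For Jun this difference on the log2(RPKM + 1) scale was 0.77 in GFP-hi and 0.51 in GFP-lo cells. For Fos it was 0.57 and 0.42, for Junb 0.42 and 0.21, and for Jund 0.31 and 0.13. Fosb showed 1.02 and 0.41, the largest difference of any member in GFP-hi. Batf (0.12 and -0.04) and Mafk (0.13 and -0.02) differed little. Against the mean of the other libraries of the same population, 6 of the 8 members tested were higher in replicate 2 of both populations, as were 33.2% of all genes tested. Fos, Fosb, Jun and Junb had their highest value in replicate 2 of both populations, while in GFP-lo cells Jund and Fosl2 were slightly higher in replicate 1. Heat-shock genes ranged widely. Hspa1a (2.82 and 2.46) and Dnajb1 (1.85 and 1.69), a co-chaperone of Hsp70, differed by more than any member. Hsph1 (0.99 and 0.82) and Hspa8 (0.62 and 0.60) lay below Fosb in GFP-hi cells but above every member in GFP-lo cells. Among other immediate early genes the difference was 1.25 and 1.18 for Egr1, 0.97 and 0.86 for Nr4a1 and 0.39 and 0.37 for Ier2. Each difference sets 1 library against 2, so no test was made, and the part of handling in these levels was not tested.

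**Figure D2:**
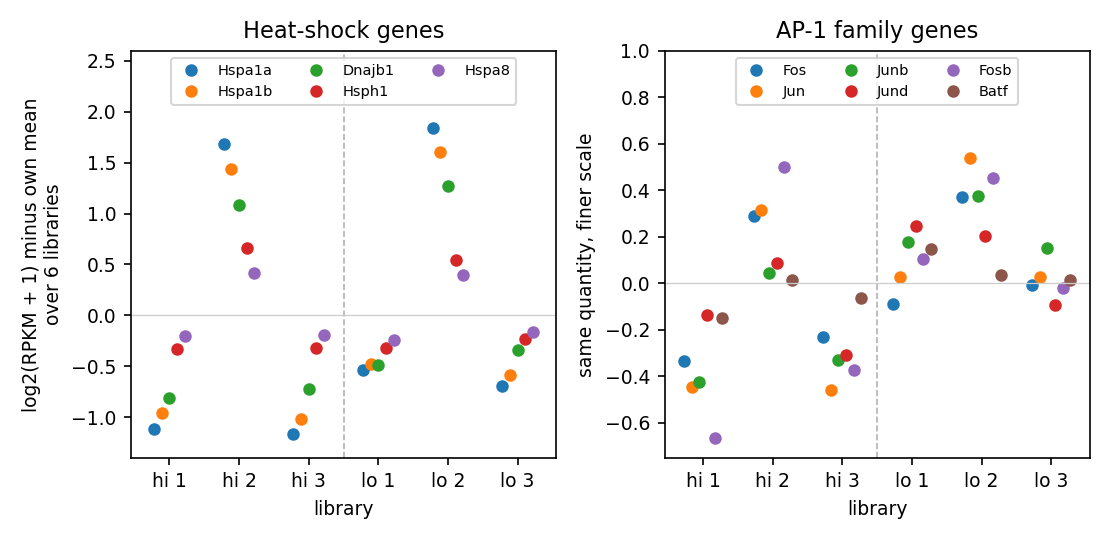
Log2(RPKM + 1) of 5 heat-shock genes (left) and 6 AP-1 family genes (right, finer scale), each minus its own mean over the 6 libraries; hi and lo number the GFP-hi and GFP-lo libraries. Replicate 2 of each population is the highest library of its population for the heat-shock genes and for Fos, Jun, Junb and Fosb, and within the remaining libraries GFP-lo lies above GFP-hi for Jun and Junb.

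The comparison was repeated within these divisions. In the 4 libraries with less heat-shock RNA, 2 of each population, Junb had 542 and 578 RPKM in GFP-hi against 824 and 808 RPKM in GFP-lo, and Jun had 377 and 374 RPKM against 525 and 524 RPKM. The groups did not overlap, with lower values in GFP-hi, for 7 of the 8 members tested, Mafk being the exception, and for 21% of all genes. By limma on these 4 libraries, Junb fell by 0.54 (interval from -0.70 to -0.38, adjusted p = 0.0312) and Jun by 0.48 (interval from -0.62 to -0.34, adjusted p = 0.0303) on the log2 scale. As lower in GFP-hi, 2 of 8 members passed, against 0.524% of all genes. Fos (-0.24, limma adjusted p = 0.208), Fosb (-0.56, adjusted p = 0.113) and Jund (-0.30, adjusted p = 0.337) did not pass. In the other 2 libraries, 1 of each population and therefore without a test, Junb had 750 RPKM in GFP-hi libraries against 944 in GFP-lo, a ratio of 0.794, and Jun a ratio of 0.855. The ratio was 0.944 for Fos and 0.924 for Jund, and 6 of the 9 listed members were lower in GFP-hi there.

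Some heat-shock genes differed between the populations even in those 4 libraries, though not all in 1 direction. Of the 23 tested, 14 had a positive and 9 a negative log2 fold change there, with a median of 0.015. Hspa1a had 158 and 152 RPKM in GFP-hi against 235 and 211 RPKM in GFP-lo, and Dnajb1 averaged 127 RPKM against 162 RPKM. Hsph1 (22.6 and 23.4 RPKM on average) and Hspa8 (164 and 164 RPKM) were nearly level. Over all 6 libraries, limma with the mean of the heat-shock list as a covariate gave Junb a log2 fold change of -0.46 (interval from -0.59 to -0.33, adjusted p = 0.00626) and Jun one of -0.37 (interval from -0.49 to -0.24, adjusted p = 0.0111). Their fold changes stayed close to those without the covariate. The mean heat-shock level differed by only -0.03 between populations (GFP-hi minus GFP-lo), so this covariate could move them little in any case. The part of handling in them was not tested. The residual SD, left after group and covariate, was 0.0653 in place of 0.377 for Jun and 0.0724 in place of 0.195 for Junb. The covariate was 6.02 and 6.01 in replicate 2 of the populations and 5.24 to 5.31 in the other libraries. Heat-shock level therefore cannot be told apart from anything else that those 2 libraries share. In this fit 2 of 8 members passed as lower, against 2.49% of all genes. Fos (-0.16, limma adjusted p = 0.102), Jund (-0.23, adjusted p = 0.204) and Batf (-0.13, adjusted p = 0.245) did not. With Hspa1a and Hspa1b alone as the covariate, a choice made after seeing the data, Junb (-0.42, limma adjusted p = 0.00716) and Jun (-0.30, adjusted p = 0.0176) passed, where 2.63% of all genes passed as lower. Array quality weights also gave 2 lower members, Junb (-0.59, limma adjusted p = 0.00367) and Jun (-0.68, adjusted p = 0.0248), where 5.34% of all genes passed as lower. Jun and Junb thus passed only in fits that took the difference between libraries into account or left libraries out. A covariate leaves 3 residual degrees of freedom among libraries.

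**Figure D3:**
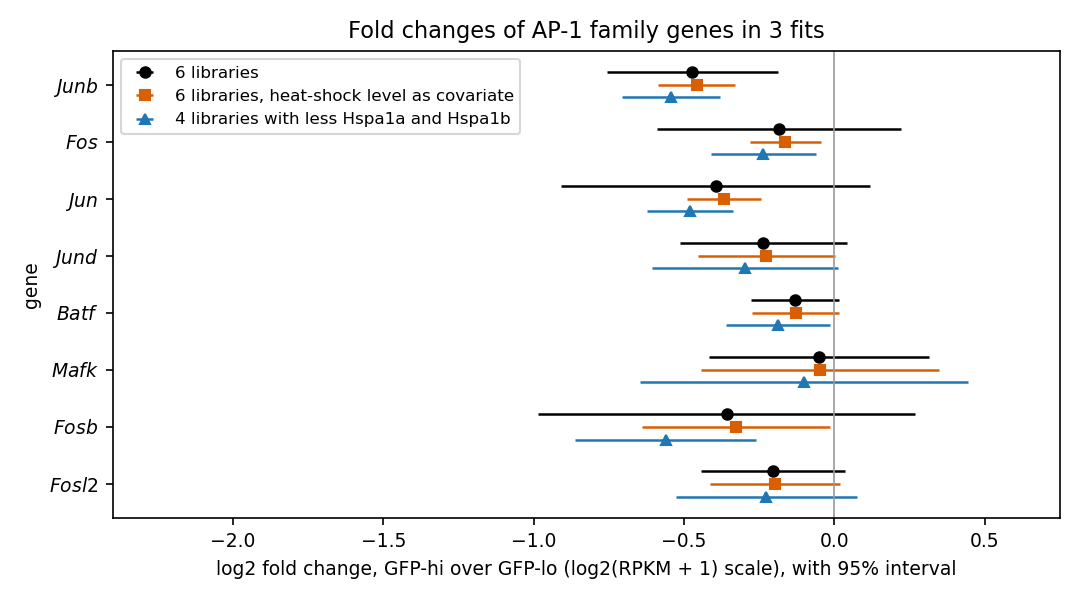
Log2 fold change (GFP-hi over GFP-lo) of the 8 tested members with 95% intervals from limma: all 6 libraries (black), all 6 with the heat-shock level as covariate (orange) and the 4 libraries with less Hspa1a and Hspa1b (blue). Points lie left of 0 in the 3 fits, and for Jun the interval runs from -0.91 to 0.12 without and from -0.49 to -0.24 with the covariate.

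Ratios between members within a library do not depend on library scaling. Fos over Junb was 0.879, 0.979 and 0.887 in GFP-hi and 0.687, 0.824 and 0.742 in GFP-lo libraries, and Fos over Jun was 1.26, 1.15 and 1.37 against 1.08, 1.04 and 1.14. Of the 6 ratios among Fos, Jun, Junb and Jund, these 2 did not overlap between populations (exact permutation test, two-sided p = 0.1 each, the smallest possible). Among all pairs of tested genes 27.6% had ratios that did not overlap, so 2 of 6 lies near that background. Jun over Junb was 0.647 to 0.854 in GFP-hi and 0.637 to 0.794 in GFP-lo and did not separate them.

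Genes with the most similar profile over the 6 libraries were named by the root-mean-square difference of log2(RPKM + 1) after centring each gene on its own mean. For Fos, whose own profile varied by 0.256 around its mean, the nearest were Nfkbia (0.048), which encodes the NF-kB inhibitor IkB-alpha, 5830454E08Rik (0.0583), Arc (0.0631), Sertad1 (0.065) and Crip1 (0.0654). For Jun, varying by 0.366, they were Tmem88 (0.0999), Sertad1 (0.116), Fosb (0.133), G0s2 (0.133) and Tnf (0.134), the inflammatory cytokine gene. For Junb, varying by 0.285, they were Rrad (0.0634), Klf4 (0.0643), Sit1 (0.0689), Slc49a4 (0.0761) and Shld1 (0.0844). For Jund, varying by 0.196, they were Hs3st3b1 (0.0429), Dnajb9 (0.0617), Sla (0.0655), Adgre5 (0.0679) and Tob1 (0.0683). Fos and Jun shared Sertad1, and no gene was among the nearest of both Junb and another of these members. With 6 libraries such likeness is a description.

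The lists around the family were then counted in the same fit, where 3.95% of all genes passed. Of 38 other bZIP genes 22 were tested and none passed, with a median log2 fold change of -0.0043 and 2 genes at an unadjusted p under 0.05 (limma). The most abundant were Atf4 (81.5 RPKM), an effector of the integrated stress response, Cebpb (32.6 RPKM), Atf6b (28.9 RPKM), Nfe2l2 (24.7 RPKM), Cebpz (19.1 RPKM) and Creb3 (17.1 RPKM). Cebpb, which encodes the stress- and cytokine-responsive factor C/EBP-beta, had 18.7, 32.4 and 24.6 RPKM in GFP-hi libraries against 34.0, 47.7 and 38.4 in GFP-lo. Its groups did not overlap and its log2 fold change was -0.67 (limma adjusted p = 0.101), or -0.64 with the heat-shock covariate (adjusted p = 0.0152).

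Of 36 tested kinases and regulators that act on AP-1, 1 was higher and none lower, with a median of 0.0039. This was Elk3, a partner of serum response factor at Fos-type promoters, with 10.1, 9.87 and 9.10 RPKM in GFP-hi libraries against 7.80, 7.61 and 7.34 in GFP-lo. Its log2 fold change of 0.32 (limma adjusted p = 0.0287) was not called in 8 of 19 alternative fits, the 6 fits that each left out 1 library among them (adjusted p from 0.0119 to 0.147 over all 19). None of 10 tested partner factors, such as Nfatc1 and Ets1, passed (limma, median -0.04, 3 at an unadjusted p under 0.05). Their median ran from -0.10 to 0.07 when 1 library was left out. Of 13 listed partners, Irf4, Irf8 and Nfat5 averaged under 1 RPKM and were left out of the test. Irf4 averaged 0.932 RPKM in GFP-hi against 0.582 in GFP-lo, Irf8 1.05 against 0.558 and Nfat5 0.81 against 0.802. With no filter none of the 13 passed, and 5 had an unadjusted p under 0.05 (limma), as did 2054 of all 11162 genes.

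Of 29 named genes that AP-1 and NFAT are known to induce, 15 were tested, and 3 were higher and 1 lower, with a median of 0.08. Tnfrsf9, which encodes 4-1BB (1.83, limma adjusted p = 9.66e-05), the granzyme gene Gzmb (0.81, adjusted p = 0.0382) and the intermediate filament gene Vim (0.41, adjusted p = 0.019) were higher. Cd40lg, which encodes CD40 ligand, was lower (-1.13, limma adjusted p = 0.0109). Gzmb was not called in 6 of 18 and Vim in 5 of 19 alternative fits. Over the 15 tested, 9 fold changes were positive and 6 negative. The 8 AP-1 members, none of which passed, all had negative fold changes in this fit.

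Of 42 other immediate early genes tested, 1 was higher and 1 lower, with a median of -0.10 and 28 negative fold changes. This direction was not stable: without GFP-lo replicate 2 the median was 0.01 with 18 negative fold changes, and over the fits that left out 1 library it reached -0.16. Cd83, a surface marker of activation, was higher (0.53, limma adjusted p = 0.0279), and Socs3, a suppressor of cytokine signals, was lower (-0.93, adjusted p = 0.0208). They were not called in 6 of 18 and 4 of 19 alternative fits. Ier2 had 248, 322 and 245 RPKM in GFP-hi libraries against 310, 394 and 301 in GFP-lo, which is -0.30 on the log2 scale (limma adjusted p = 0.26), and it passed with the heat-shock covariate (-0.29, adjusted p = 0.0112). Dusp1, a MAP kinase phosphatase (-0.23, limma adjusted p = 0.42), and Zfp36, which encodes the RNA-destabilising protein tristetraprolin (-0.18, adjusted p = 0.453), did not pass. Egr1 had 18.2, 50.5 and 23.5 RPKM in GFP-hi libraries against 23.2, 60.8 and 29.7 in GFP-lo, Egr2 had 3.17, 6.18 and 2.70 RPKM against 3.18, 5.42 and 2.48 RPKM, and Egr3 had 0.906 to 1.35 RPKM against 0.90 to 1.19 RPKM. Nr4a1 had 56.6, 90.9 and 37.0 RPKM against 63.1, 84.9 and 33.8 RPKM, so its groups overlapped almost wholly. With the covariate, 3 of the 42 were higher and 3 lower, where 6.78% of all genes passed. Of 23 tested heat-shock genes none passed over the 6 libraries (limma, median 0.01, 1 at an unadjusted p under 0.05), and their median ran from -0.16 to 0.16 when 1 library was left out.

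**Figure D4:**
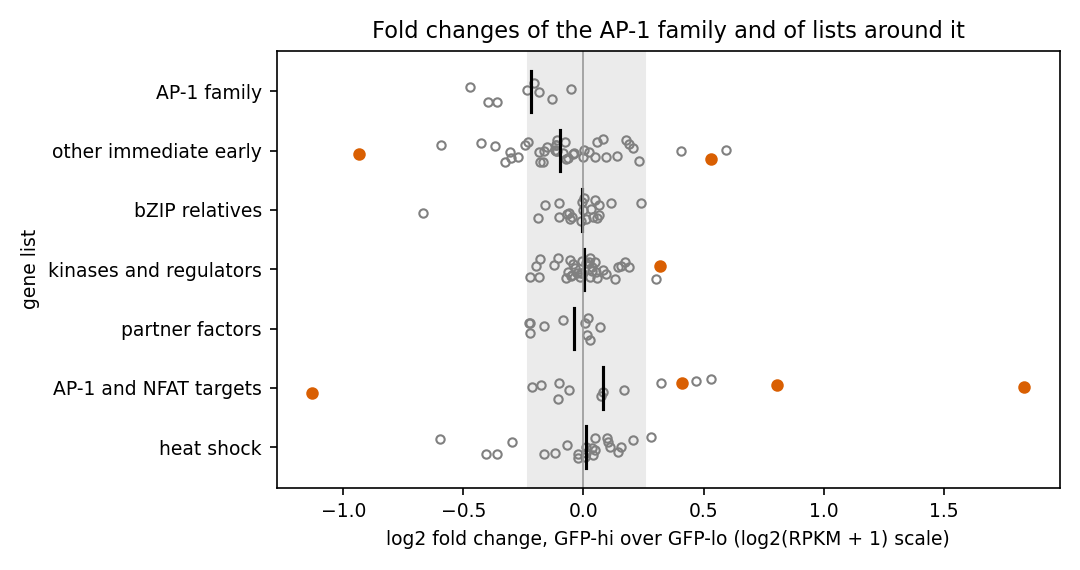
Log2 fold changes (GFP-hi over GFP-lo) of each tested gene in the AP-1 family and 6 lists around it; orange points passed limma at an adjusted p under 0.05, black bars are list medians and the grey band holds the middle 90% of all tested genes (-0.23 to 0.26). The 8 AP-1 members lie left of 0 with a median of -0.22, and the other medians lie between -0.10 and 0.08.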

How the data were processed

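RNA of 6 sorted samples had been made into SMART-seq v4 and Nextera XT libraries, per the labels' protocols. Values deposited by the authors were RPKM, per the file headers, in 1 column per library. STAR and mm10 are named in the submitters' processing notes, and the counter, gene lengths and rule for listing genes were not given in the sources used here. Groups follow the reporter label. The design gave no pairing or batch, so none was fitted.

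Genes averaging 1 RPKM or more were tested with limma 3.58.1 (R 4.3.3) on log2(RPKM + 1), using eBayes with trend, two-sided, with Benjamini-Hochberg adjustment over 9351 genes and a threshold of 0.05. The pseudocount understates changes of low genes. Depth was recovered by scaling RPKM times length of 800 single-transcript genes to whole reads; 86.7% to 90.6% of low values then came within 0.1 of an integer (20% if steps were absent). On 5 simulated data sets of 9351 genes with 200 changed by 1 (log2), 97% were recovered and 3.85% of calls were false. That change is larger than any fold change of a member, and errors were drawn independently. The recovery therefore does not tell how often changes of the members' size would be called.

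Members, gene lists and alternatives were chosen with earlier results of these data known. Named genes are the members, list genes that passed (at most 6 per list), the 6 most abundant relatives, set immediate early and heat-shock genes, and the 5 nearest profiles. Nfatc1, Ets1, Irf4, Irf8, Nfat5, Cd79b, Hba-a1, Eomes and Ctla4, which that rule does not cover, were picked with their values known. In the symbol column 14 names had become dates and 1 was blank; those rows were named by Entrez number from RefSeq. Figures used matplotlib 3.10.9.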

Additional observations from a re-analysis of the deposited data

How the results depend on the processing

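The 19 alternative fits gave 150 fold changes of the 8 members, counting each member in each fit that tested it. Of these 148 were negative, the exceptions being Mafk. All came from the same 6 libraries, so they are not separate observations. Over the fits without 1 library the log2 fold change ran from -0.37 to -0.05 for Fos, -0.65 to -0.22 for Jun, -0.61 to -0.38 for Junb, -0.34 to -0.14 for Jund and -0.19 to 0.10 for Mafk, and the members' median from -0.36 to -0.15. In those fits 0 to 1 members passed, with 71 to 187 genes higher and 59 to 128 lower, against 230 and 139. Called genes numbered 2 to 4 among AP-1 and NFAT targets (4 with all libraries), 0 to 0 among kinases and regulators (1), 0 to 1 among bZIP relatives (0) and 0 to 2 among other immediate early genes (2). Pseudocounts of 0.1 and 0.5, no filter, median centring, quantile normalization, no trend and robust eBayes called no member.

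With array quality weights 783 genes were higher and 499 lower, 2 members were called (Jun -0.68, Junb -0.59), and calls numbered 6 among kinases and regulators, 2 among relatives, 8 among immediate early genes and 1 among heat-shock genes. With the heat-shock covariate 401 were higher and 233 lower, 2 members were called (Jun -0.37, Junb -0.46), and the lists had 2, 1, 6 and 4 calls in that order. With Hspa1a and Hspa1b as covariate, chosen after seeing the data, 440 were higher and 246 lower, 2 members were called (Jun -0.30, Junb -0.42), and the lists had 2, 1, 7 and 3 calls, with 1 partner factor. In the 4 libraries with less Hspa1a and Hspa1b 52 were higher and 49 lower, 2 members were called (Jun -0.48, Junb -0.54), and calls numbered 2 among targets, 0 among kinases and regulators and 1 among heat-shock genes. A mean RPKM of at least 5 left out Fosb and Fosl2 and gave 119 higher and 83 lower genes, 2 called targets and 1 called immediate early gene, and trimmed mean of M values scaling left 0 called kinases and regulators. The smaller counts with fewer libraries or a stricter filter are from fits with fewer samples or genes. The cause of these and of the other differences was not tested. No paired analysis was made, because the labels give no replicate numbers that groups share and do not say which libraries were processed together. Whether pairing would change the calls was not tested. Depth limits Maff, at 9 to 65 reads.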
